A study of Mus musculus with 24 samples.

Results

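The 9 genes described here encode transcription factors of enteroendocrine cells, the hormone-secreting cells of the gut epithelium: Neurog3, Neurod1, Pax4, Pax6, Isl1, Nkx2-2, Insm1, Foxa1 and Foxa2. They were taken by symbol from the array annotation, 9 of 18193 genes measured, and 17 probe sets carried their names. Each gene was followed through its brightest probe set by the mean of the 24 arrays, and any other probe set served as a check. Affymetrix arrays of total RNA from mouse small intestine were compared between crypts and villi in 4 genotypes, with 3 arrays in each of 8 groups. WT mice carried no deletion. Rb mice were Rb-/-. TKO mice lacked 3 E2f genes, E2f1-/-;E2f2-/-;E2f3-/-. QKO mice lacked those and Rb as well. All mice were C57BL/6;FVB, 2 months old and on a normal diet, and every intestine, WT included, was taken 7 days after an intraperitoneal injection of beta-naphthoflavone. The labels name neither a Cre driver nor the deleted exons, and they do not say which cells lost the genes. Nor do they say whether the 3 arrays per group are from different animals, so the p-values measure the spread between arrays, which may be technical. By a sex-linked gene given below, some groups held arrays of both sexes, so of different animals.

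Enteroendocrine cells arise from crypt progenitors that briefly switch on Neurog3, a basic helix-loop-helix factor required for the lineage. Neurod1, a related factor that acts after Neurog3, and Insm1, a zinc-finger factor, are kept in maturing cells, and Isl1, Pax4, Pax6 and Nkx2-2 are homeodomain factors that shape which hormones the cells make. Foxa1 and Foxa2 are forkhead factors of the gut epithelium as a whole that also act on hormone genes. Rb restrains the activating E2f factors, which drive cell-cycle genes.

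Neurog3, Neurod1 and Isl1 are shown by sequence because the first was highest in crypts while the other pair was highest in QKO villi. The windows are the 250 bases before the annotated gene start in RefSeq (GRCm38.p6), read 5′ to 3′ on the gene's strand, with E-boxes (CANNTG, the letters that basic helix-loop-helix factors recognise) in capitals. Neurog3 lies at chr10:62132840-62133089 on the plus strand, Neurod1 at chr2:79456637-79456886 on the minus strand and Isl1 at chr13:116309689-116309938 on the minus strand.

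Neurog3: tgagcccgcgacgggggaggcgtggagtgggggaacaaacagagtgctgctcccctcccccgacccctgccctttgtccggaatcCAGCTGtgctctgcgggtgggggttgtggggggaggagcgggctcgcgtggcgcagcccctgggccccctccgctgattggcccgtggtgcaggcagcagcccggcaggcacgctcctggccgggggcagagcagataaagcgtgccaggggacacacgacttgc

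Neurod1: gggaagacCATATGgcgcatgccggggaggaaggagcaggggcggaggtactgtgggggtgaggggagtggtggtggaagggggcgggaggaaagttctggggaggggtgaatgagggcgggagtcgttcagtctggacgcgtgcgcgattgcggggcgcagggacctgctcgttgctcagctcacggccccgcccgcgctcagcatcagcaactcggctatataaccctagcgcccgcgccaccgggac

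Isl1: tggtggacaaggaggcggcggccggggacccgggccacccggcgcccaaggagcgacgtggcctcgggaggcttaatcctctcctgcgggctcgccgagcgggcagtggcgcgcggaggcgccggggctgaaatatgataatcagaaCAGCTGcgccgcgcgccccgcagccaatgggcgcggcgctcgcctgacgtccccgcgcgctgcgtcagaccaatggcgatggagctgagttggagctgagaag

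Each of these windows held 1 E-box. Its first base lay 165 bases before the start in Neurog3 (CAGCTG), 242 in Neurod1 (CATATG) and 103 in Isl1 (CAGCTG). Of the 9 genes, 7 had RefSeq windows, 10 windows in all, and 7 of those 10 held CANNTG, against 66.2% of 32851 windows of the same length. The narrower form CAGATG, read on both strands and contained within CANNTG, was in 1 of 10 windows, that of Nkx2-2, against 14.4% of all windows. E2F-type letters (TTTCCCGC, TTTCGCGC, TTTGCCGC or TTTGGCGC, both strands) were in 0 of the 10 and in 1.86% of all windows. These matches describe the letters in the windows only.

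Several features of the arrays bear on what follows. Rb1 read 8.13 to 9.36 on the log2 scale on the arrays labelled Rb or QKO and 9.71 to 10.9 on those labelled WT or TKO, apart from 2 arrays that went against their labels: the array labelled WT crypts 3 read 8.46 and the array labelled Rb crypts 2 read 10.2. Probe sets of the E2f genes may lie outside the deleted parts and check nothing here. Spiked-in poly-A controls averaged 5.49 to 7.05 in WT and Rb arrays and 9.59 to 11.8 in TKO and QKO arrays. Loss of the E2f genes and array processing therefore cannot be told apart in comparisons across that line. QKO against TKO and Rb against WT lie within it. Hybridization controls, however, averaged 11.03 to 11.26 in QKO villi and 10.5 to 10.71 in TKO villi. In WT they averaged 9.94 to 10.2 in villi and 10.51 to 10.86 in crypts, and in Rb they were also lower in villi. In TKO and QKO they were higher in villi, and between Rb and WT villi they overlapped. Their part in these comparisons was not tested. By the Y-linked gene Eif2s3y, 12 arrays were male, among them all 6 of QKO, and no WT array and no Rb crypt array was male. It ran from 3.15 to 9.24 within Rb villi, 3.33 to 9.44 within TKO crypts and 3.45 to 9.49 within TKO villi. Each of these groups therefore held arrays of both sexes. The compartment labels held: enterocyte markers averaged 12.9 to 13.7 in crypts and 13.8 to 14.1 in villi. Tph1, which marks serotonin-making cells, read 5.82 to 10.5 over the 24 arrays, whereas Insl5, a hormone gene mostly of the colon, had group means of 3.47 to 3.86, under the lower quartile of all gene values, 4.49. In RNA from whole crypts or villi, fewer cells of a type and less RNA per cell cannot be told apart.

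Levels are deposited log2 values, so a difference of 1 is 2-fold, and they are not compared between genes because probes differ in brightness. Of the 9 genes, 7 had group means that spanned at least 1 on this scale. Neurod1 had the widest span, from 6.50 in Rb villi to 9.19 in QKO villi, followed by Neurog3, from 5.05 in Rb villi to 7.61 in QKO crypts. Insm1 ran from 4.71 to 6.85 and Isl1 from 5.43 to 7.19, both lowest in Rb villi and highest in QKO villi. Nkx2-2 ran from 4.83 in TKO villi to 6.53 in QKO crypts. Foxa1 ran from 7.49 in WT villi to 8.60 in QKO crypts, and Foxa2 ran from 6.13 in TKO villi to 7.28 in WT crypts. The group means of Pax4 (5.65 to 6.22) and Pax6 (5.24 to 5.53) spanned 0.57 and 0.29 and stayed below the median of all gene values, 6.39, so these probe sets may have measured little of the transcripts. Group means were also below that median in 7 of 8 groups for Nkx2-2, 6 of 8 for Insm1, 6 of 8 for Isl1 and 5 of 8 for Neurog3. No detection call was used, so the fold changes given are those of probe signal and no floor stands behind them.

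**Figure D1:**
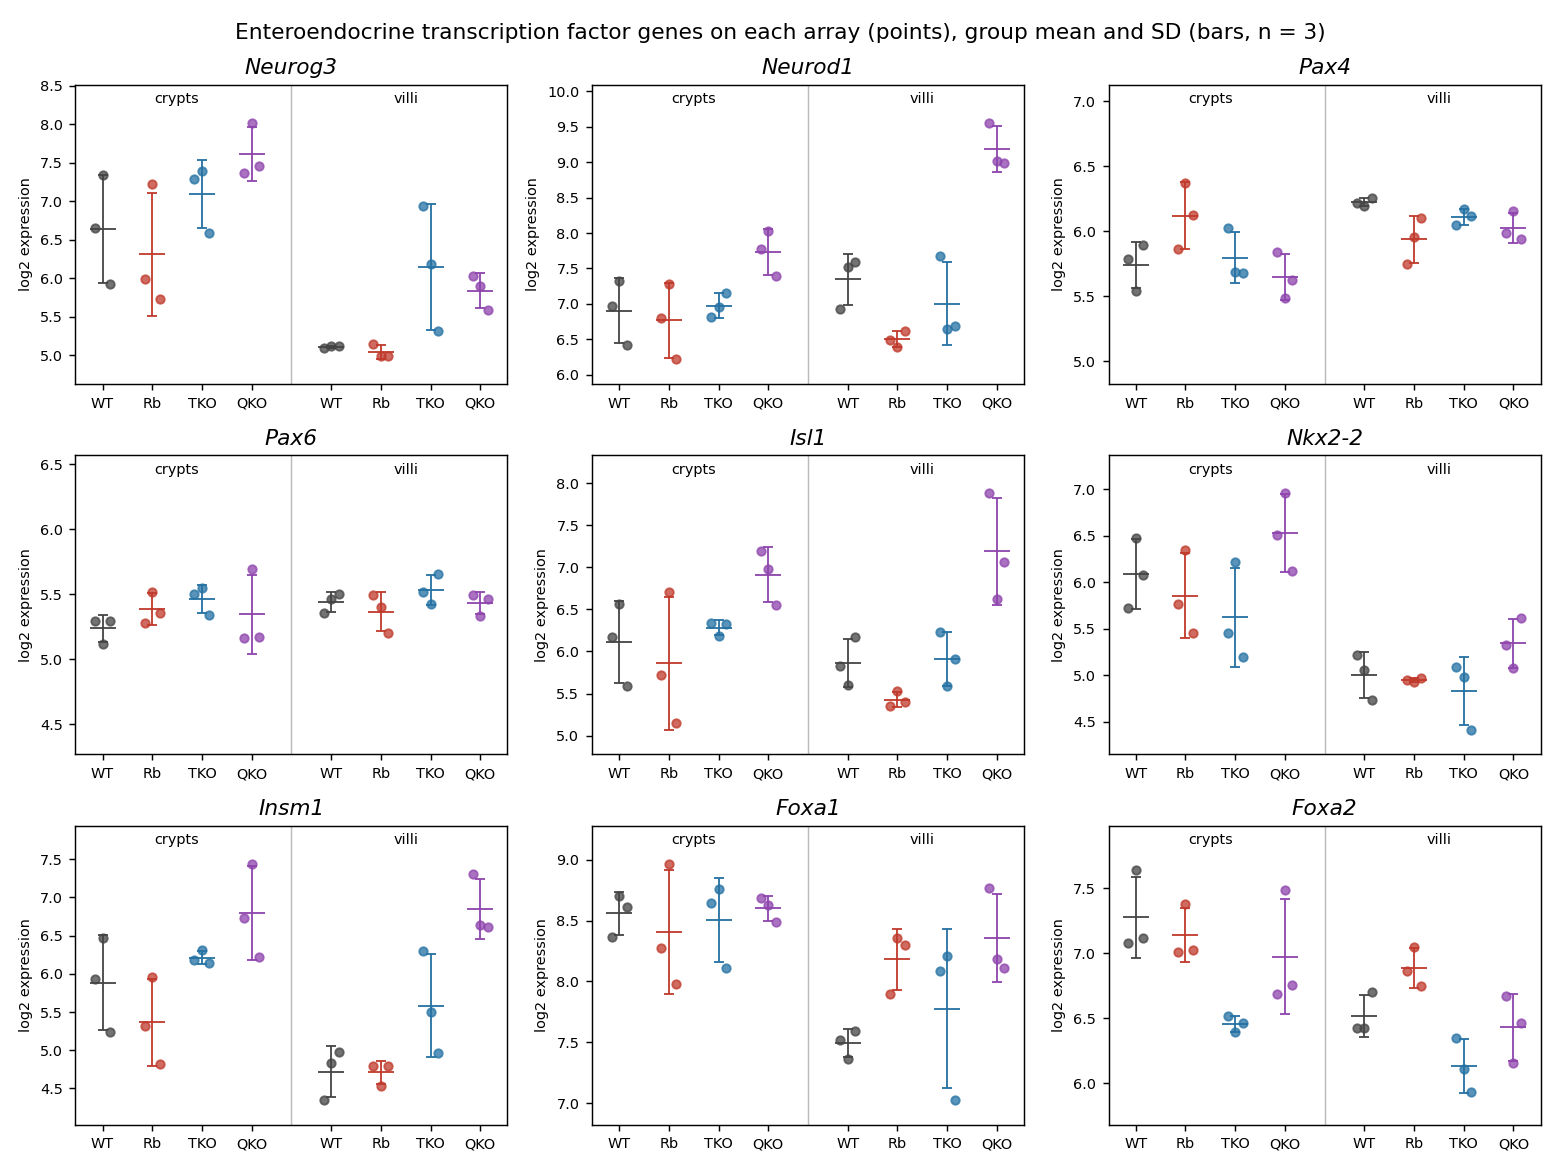
Deposited log2 expression of the 9 genes on each array (points), with group means and SDs (bars, n = 3), crypts on the left and villi on the right of each panel; axes differ between genes. Neurod1 reads 8.99 to 9.56 on the 3 QKO villus arrays, above all other arrays, whereas Neurog3 reads higher in crypts than in villi within WT, where the 3 villus arrays lie at 5.10 to 5.12.

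The first comparison set villi, to which the cells migrate, against crypts, where they are born. In WT mice 5 of the 9 genes were lower in villi and 1 was higher, by limma with Benjamini-Hochberg adjusted p under 0.05; 18.6% of all genes passed as lower, 18.8% as higher and 37.4% in either direction. The median difference of the 9 genes was -0.76, beside 0.08 over all genes. Neurog3, the progenitor factor, read 6.65, 7.34 and 5.93 in WT crypts and 5.10, 5.12 and 5.12 in WT villi. The groups did not overlap, as for 52.5% of all genes, and the 3 villus arrays were nearly equal, at a level that may be background. Neurog3 fell by 1.53 ± 0.38 (SE, n = 3 and 3), or 2.88-fold in probe signal, with an adjusted p of 0.0032 in limma. Nkx2-2 read 5.72, 6.48 and 6.07 in WT crypts and 5.21, 5.06 and 4.73 in WT villi, a difference of -1.09 ± 0.27. Its arrays did not overlap between crypts and villi either, and its adjusted p in limma was 0.0033. Insm1 read 5.93, 6.47 and 5.24 in WT crypts and 4.35, 4.83 and 4.98 in WT villi. The difference was -1.16 ± 0.35 (adjusted p = 0.013 in limma), and it no longer passed without WT crypts 2 or without WT villi 1. Without the array labelled WT crypts 3, whose Rb1 level goes against its label, and Rb crypts 2, 6 of 9 genes still passed. Foxa1 (-1.07 ± 0.27) and Foxa2 (-0.76 ± 0.20) fell as well, and neither gene's arrays overlapped between the compartments. Pax4 was the one gene to rise, by 0.48 ± 0.15, a call that was lost without WT crypts 2 (adjusted p = 0.071 in limma). Neurod1 (0.44 ± 0.29), Isl1 (-0.24 ± 0.33) and Pax6 (0.20 ± 0.13) did not pass.

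Of 18 serotonin and granule genes, products of mature enteroendocrine cells, 8 were higher in WT villi and 1 was lower, beside 18.8% and 18.6% of all genes, with a list median of 0.39. Tph1, the rate-limiting enzyme of serotonin synthesis outside the brain, rose by 1.23 ± 0.31, and Slc18a1, a vesicular monoamine transporter, by 1.09 ± 0.20. Among 12 hormone genes, 3 were higher and 1 was lower, a share of higher genes near that of all genes: Sct, which encodes secretin, rose by 1.05 ± 0.21 and Cck, which encodes cholecystokinin, by 1.16 ± 0.33, while Tac1, which encodes tachykinins, fell by 1.07 ± 0.33. Gcg, which encodes glucagon-like peptides, averaged 9.05 in crypts against 7.95 in villi and did not pass. Of 12 other enteroendocrine transcription factors, 3 fell and 1 rose; Sox4 fell by 2.25 ± 0.40 and Mnx1 by 1.58 ± 0.32, and Pdx1 rose by 1.46 ± 0.33. Among 12 secretory-fate and Notch genes, 5 fell and 1 rose, and Hes1, a Notch target, fell by 1.30 ± 0.18. Stem cell markers averaged 9.25 to 9.80 in WT crypts and 7.63 to 7.86 in WT villi, and Paneth cell markers 13.5 to 13.8 and 11.4 to 12.1. All 4 of each list and all 7 proliferation genes were lower in villi; their part in the lower villus levels of the 5 genes was not tested.

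Within the mutants, Neurog3, Nkx2-2, Foxa1 and Foxa2 were lower in villi in each genotype by their means, though not every difference passed. In Rb mice Neurog3 and Nkx2-2 were the only 2 of the 9 genes to pass in limma (-1.27 ± 0.38 and -0.91 ± 0.27). Of all genes 17.3% passed in either direction and 9.65% as lower. Both calls were lost without the 2 arrays whose Rb1 level goes against the label (0 of 9 left), with sex as a covariate (0 of 9), and without any single Rb villus array. In TKO mice 0 of 9 passed in limma, against 15.4% of all genes. In TKO and QKO, crypt and villus arrays of the same number deviated together, although the labels do not state a pairing. With the number kept as a block, 3 of 9 passed in TKO villi against TKO crypts: Neurog3 (-0.95, adjusted p = 0.036), Nkx2-2 (-0.79, adjusted p = 0.040) and Foxa1 (-0.73, adjusted p = 0.011), all in limma.

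Neurog3 and Insm1 varied between the TKO villus arrays. Neurog3 read 6.94, 6.19 and 5.31 on TKO villus arrays 1, 2 and 3, against 7.30, 7.39 and 6.59 in TKO crypts. Array 3 was near the WT villi and array 1 was inside the crypt range. Insm1 followed the same order, at 6.30, 5.50 and 4.96. Paneth cell markers averaged 12.3, 12.6 and 9.81 and stem cell markers 8.34, 8.52 and 7.63 on the same 3 arrays. Over all 12 villus arrays, Neurog3 correlated with the Paneth mean at r = 0.17 and with the stem cell mean at r = 0.51. The part of crypt tissue in the TKO villus values was not tested.

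In QKO mice, as in WT, calls between crypts and villi went in both directions. Of 9 genes, 3 were lower and 2 were higher in QKO villi, with 33.4% of all genes passing in either direction in limma, 19.9% lower and 13.5% higher. Neurog3 read 7.37, 8.02 and 7.46 in QKO crypts and 6.03, 5.89 and 5.59 in QKO villi, and Nkx2-2 read 6.51, 6.96 and 6.12 against 5.33, 5.08 and 5.62. Neither gene's arrays overlapped, as for 36% of all genes: Neurog3 fell by 1.77 ± 0.38 (adjusted p = 0.0011 in limma) and Nkx2-2 by 1.19 ± 0.27 (adjusted p = 0.0020 in limma). Neurod1 went the other way, from 7.78, 8.03 and 7.40 in QKO crypts to 9.56, 9.02 and 8.99 in QKO villi. It rose by 1.45 ± 0.29, or 2.74-fold, with an adjusted p of 0.00057 in limma. Insm1 differed by 0.05 ± 0.35 and Isl1 by 0.28 ± 0.33, with arrays that overlapped. Foxa2 (-0.55) and Pax4 (0.38) passed at adjusted p of 0.038 and 0.049 in limma but not with the number as a block (0.057 and 0.061), which left 3 of 9.

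The tests of whether the crypt-to-villus difference itself changed with genotype called 0 of the 9 genes in limma for Rb against WT (5.22% of all genes), for TKO against WT (3.43%) and for QKO against WT (5.44%). Unadjusted p under 0.05 was reached by 2, 0 and 3 of the 9, counts that have no share of all genes at that threshold beside them. Neurod1 differed by 1.01 ± 0.41 (adjusted p = 0.16 in limma) and Insm1 by 1.21 ± 0.50 (adjusted p = 0.16 in limma) between QKO and WT. A factor that passed in QKO and not in WT, such as Neurod1, is therefore not shown to differ between the genotypes in this respect.

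**Figure D2:**
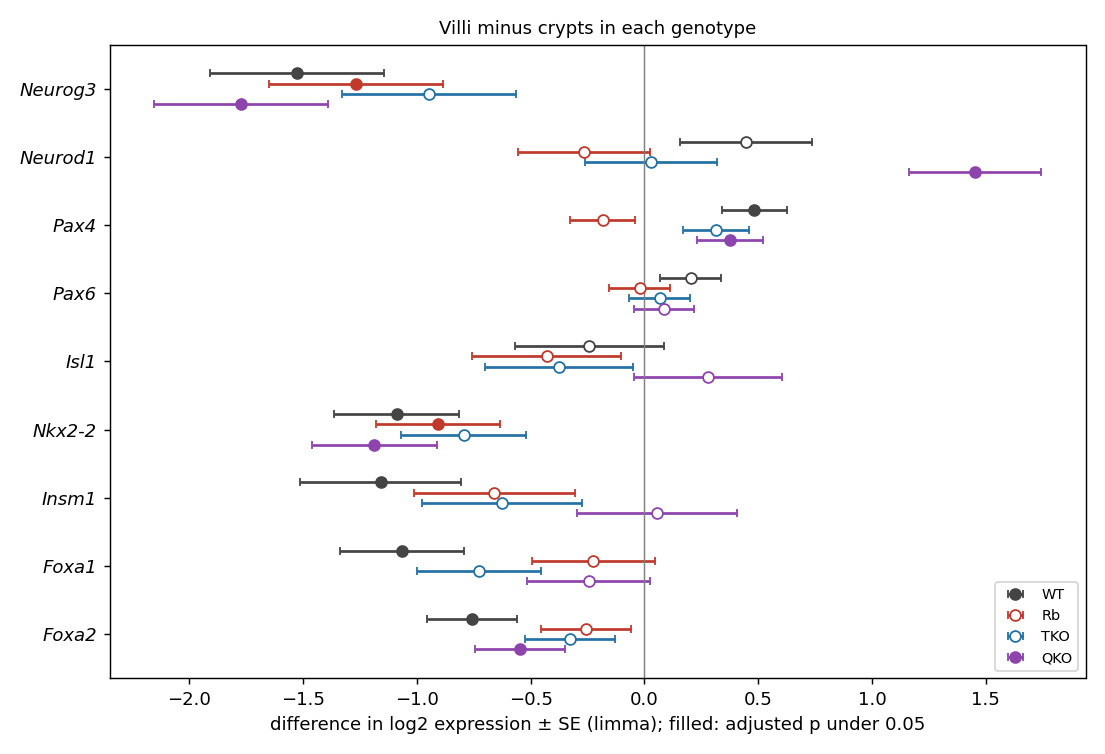
Villus minus crypt difference in log2 expression for each gene and genotype, with SE from limma; filled points have an adjusted p under 0.05. Neurog3, Nkx2-2, Foxa1 and Foxa2 lie below 0 in all 4 genotypes, and Neurod1 in QKO lies at 1.45, to the right of every other point.

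The second set of comparisons was between genotypes within a compartment. In villi, Neurod1, Isl1 and Insm1 were higher in QKO than in each other genotype, and on all 3 genes the 3 QKO villus arrays lay above the 9 other villus arrays, as did those of 5.61% of all genes. Against WT villi, 4 of 9 genes were higher in limma, with 11.6% of all genes higher and 16.8% passing in either direction. Against Rb villi 3 of 9 were higher (14.2% of all genes higher, 22.2% in either direction) and against TKO villi 3 of 9 (5.51% higher, 6.68% in either direction). These 3 comparisons share the QKO arrays. The list medians were 0.73, 0.39 and 0.51, beside 0.03, 0.08 and 0.04 over all genes. The balance of all calls depended on scaling: against TKO villi 82.6% of calls were higher, 58.1% after quantile normalization and 65.2% after centring on array medians; against WT villi the shares were 68.9%, 46.5% and 54.3%, and against Rb villi 63.9%, 47.0% and 47.0%. The directions of Neurod1, Isl1 and Insm1 did not depend on it.

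Neurod1, the helix-loop-helix factor that follows Neurog3, showed the largest differences of the 9 genes against Rb and TKO villi. It read 6.93, 7.52 and 7.59 in WT villi, 6.49, 6.39 and 6.62 in Rb villi, 7.68, 6.64 and 6.69 in TKO villi and 9.56, 9.02 and 8.99 in QKO villi. The lowest QKO array stood above the highest other villus array, TKO villi 1, by more than 1 on the log2 scale. In limma it rose by 2.18 ± 0.29 against TKO (4.54-fold, adjusted p = 0.00010), by 1.84 ± 0.29 against WT (3.58-fold) and by 2.69 ± 0.29 against Rb (6.43-fold). It passed these 3 comparisons in each of the 11 alternatives and each of the 6 fits that left out 1 array.

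Insm1, the zinc-finger factor, read 4.35, 4.83 and 4.98 in WT villi, 4.79, 4.53 and 4.80 in Rb villi, 6.30, 5.50 and 4.96 in TKO villi and 7.31, 6.63 and 6.61 in QKO villi. The highest TKO array came close to the QKO arrays, and the WT and Rb arrays lay well below them. The WT and Rb values are close to the lower quartile of all gene values, 4.49, and may be background. The rise was 2.13 ± 0.35 against WT (4.37-fold in probe signal, adjusted p = 0.00032 in limma), 2.14 ± 0.35 against Rb and 1.26 ± 0.35 against TKO (adjusted p = 0.034 in limma). Isl1, the LIM-homeodomain factor, read 5.83, 5.60 and 6.17 in WT villi, 5.36, 5.53 and 5.40 in Rb villi, 6.23, 5.59 and 5.91 in TKO villi and 7.88, 6.63 and 7.07 in QKO villi. QKO villi 1 was the highest of them and QKO villi 2 the nearest to TKO. In limma it rose by 1.33 ± 0.33 against WT (adjusted p = 0.0081), by 1.76 ± 0.33 against Rb (adjusted p = 0.00057) and by 1.28 ± 0.33 against TKO (adjusted p = 0.020). Against TKO, both Insm1 and Isl1 lost the call without TKO villi 2, TKO villi 3, QKO villi 1 or QKO villi 3, which left Neurod1 alone (1 of 9). Isl1 against WT also lost it without QKO villi 1 (adjusted p = 0.051 in limma).

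The other 6 factors did not show this pattern. Foxa2 passed as lower against Rb villi after quantile normalization (-0.63, adjusted p = 0.0099 in limma), centring on medians (-0.55, adjusted p = 0.034) and with array weights (-0.57, adjusted p = 0.019), though not with the deposited values in the main setting. Neurog3 in QKO villi (6.03, 5.89 and 5.59) lay within the range of TKO villi and differed from WT villi by 0.73 ± 0.38, which passed in limma with only those groups in the fit (adjusted p = 0.025) and not with all groups, though its QKO arrays lay above the WT and Rb villus arrays. Nkx2-2 differed from TKO villi by 0.51 ± 0.27 and from WT villi by 0.34 ± 0.27, Pax6 from TKO villi by -0.10 ± 0.13, and none of these passed. Foxa1 passed against WT villi (0.86 ± 0.27, adjusted p = 0.033 in limma), with 8.77, 8.18 and 8.11 in QKO against 7.52, 7.36 and 7.59 in WT. That call was lost after quantile normalization, after centring on medians, and without QKO villi 1 or any one WT villus array (adjusted p up to 0.14). Foxa1 read 7.89, 8.35 and 8.30 in Rb villi, so its QKO arrays overlapped those of Rb.

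The effect of Rb loss differed with the E2f genotype in villi for 2 of the 9 genes, by the limma test of (QKO minus TKO) minus (Rb minus WT), against 15.4% of all genes in either direction and 8.91% in this one. For Neurod1 the difference was 3.03 ± 0.41, made of 2.18 without the E2f genes and -0.85 with them, with an adjusted p of 3.08e-05. For Isl1 it was 1.72 ± 0.46, made of 1.28 and -0.44, with an adjusted p of 0.014. Insm1 differed by 1.28 ± 0.50 and did not pass (adjusted p = 0.089 in limma). The median over all genes was 0.12 in this comparison and 0.00 or 0.01 after centring or quantile normalization, where 43.8% or 47.7% of calls were higher instead of 57.7%; Neurod1 stayed at 2.91 or 3.00 and Isl1 at 1.60 or 1.66. Poly-A controls averaged 11.2 to 11.8 in QKO villi and 10.4 to 10.7 in TKO villi. Hybridization controls were higher in QKO villi as well, and the part of either control in this difference was not tested.

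**Figure D3:**
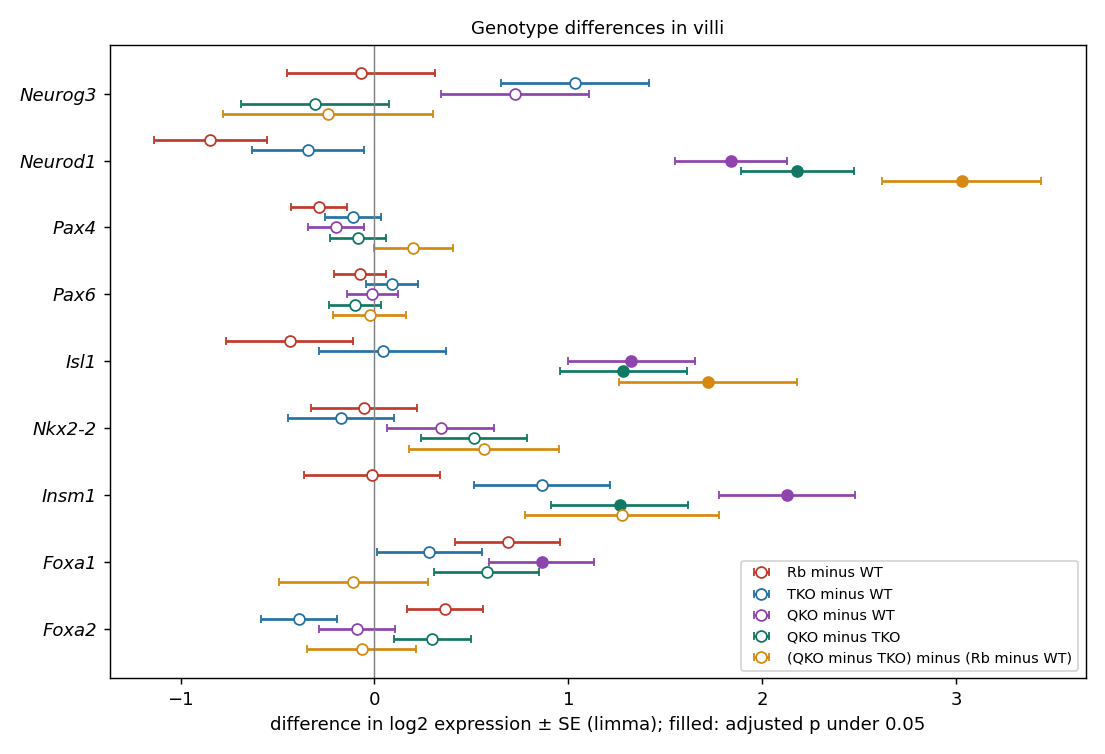
Differences in log2 expression in villi with SE from limma, for 4 genotype comparisons and the test of whether Rb loss acts differently with and without the E2f genes; filled points have an adjusted p under 0.05. Neurod1 and Isl1 are filled against WT, against TKO and in the test of the difference (3.03 and 1.72), while Neurog3, Pax4, Pax6, Nkx2-2 and Foxa2 have no filled point.

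Many products of enteroendocrine cells were higher in QKO villi too. Against TKO villi, 13 of 18 serotonin and granule genes and 6 of 12 hormone genes were higher in limma and 0 were lower. The list medians were 1.39 and 1.49. Of all genes, 5.51% were higher and 1.17% lower. By their means, Gcg (7.82 in QKO villi, 8.09 in TKO villi) and Tac1 (8.32 and 8.91) went down. Tph1 read 10.3, 9.74 and 10.5 in QKO villi and 7.65, 6.58 and 6.60 in TKO villi, a rise of 3.25 ± 0.31. Scg2, a granin of secretory granules, rose by 2.57 ± 0.26 and Snap25, a vesicle-fusion protein, by 2.01 ± 0.21. Among the hormones, Cck rose by 2.53 ± 0.33, Ghrl, which encodes ghrelin, by 2.11 ± 0.35 and Sct by 2.06 ± 0.21. Of the 12 other enteroendocrine transcription factors 3 were higher and 0 lower: Pdx1, a homeodomain factor of duodenum and pancreas, by 2.69 ± 0.33, Hhex by 1.45 ± 0.16 and Lmx1a by 0.64 ± 0.17. None of the 12 secretory-fate and Notch genes passed against TKO villi in limma.

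Markers of other cells moved on some of the same arrays. T cell markers averaged 9.37 to 10.4 in QKO villi and 8.13 to 9.22 in TKO villi, and 3 of 8 were higher in limma. The share of all genes in that comparison was 5.51% higher and 1.17% lower. Goblet cell markers averaged 12.6 to 13.0 in QKO villi and 12.1 to 12.6 in TKO villi, with 4 of 7 higher and 1 lower. Muscle and stromal markers averaged 5.29 to 6.50 in QKO villi and 5.02 to 5.43 in TKO villi; 1 of 6 was higher, Col3a1, a collagen of connective tissue, by 3.81 ± 1.07. Tuft cell markers averaged 5.46 to 5.59 in QKO villi and at most 5.29 in TKO villi, and 3 of 8 were higher: Sh2d6 (1.10), Dclk1 (1.02) and Avil (0.79). Pancreatic islet markers averaged 5.15 to 5.33 in QKO villi and 4.68 to 5.26 in the other villi, acinar markers 4.99 to 5.52, and enteric neuron and glia markers 4.61 to 4.98 against 4.48 to 4.75. Against TKO villi, 1 of 6 islet, 0 of 8 acinar and 0 of 9 neuron and glia markers passed in limma. The insulin gene Ins2 averaged 6.38 to 6.60 over the 8 groups, with 6.52 in QKO villi. Iapp, which encodes amylin, averaged 8.19 in QKO villi and 5.27 to 7.14 in the other groups. The part of these cells in the rise of Neurod1, Isl1 and Insm1 was not tested.

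**Figure D4:**
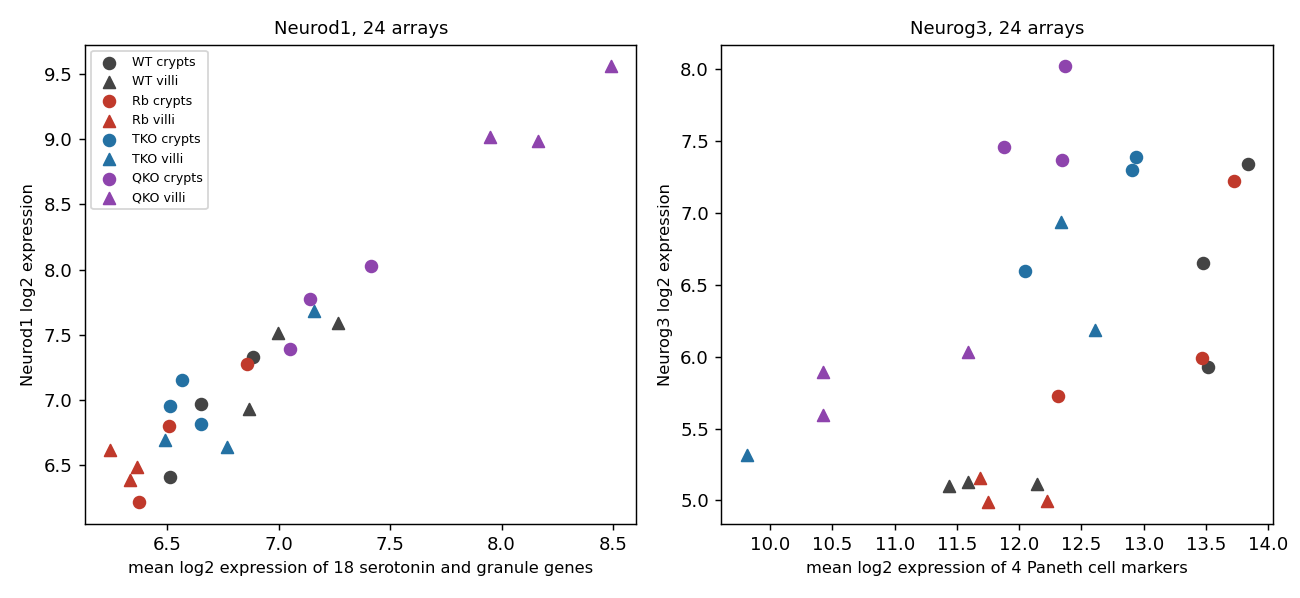
Left, Neurod1 against the mean of 18 serotonin and granule genes on each of 24 arrays; right, Neurog3 against the mean of 4 Paneth cell markers; all axes are log2 expression, circles are crypts and triangles villi. The 3 QKO villus arrays stand apart at the upper right for Neurod1, and TKO villus arrays with Neurog3 at 6.94 and 6.19 have Paneth means of 12.3 and 12.6 while the array at 5.31 has 9.81. Over all 12 villus arrays Neurog3 and the Paneth mean correlate at r = 0.17, and over the 12 crypt arrays at r = -0.19.

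In crypts, QKO mice were set against the other genotypes in turn. Against WT crypts, 0 of 9 genes passed in limma in QKO (13.3% of all genes). Neurog3 differed by 0.97 ± 0.38, Neurod1 by 0.83 ± 0.29, Insm1 by 0.91 ± 0.35 and Isl1 by 0.80 ± 0.33. Leaving out WT crypts 2 brought 3 of 9 past the threshold, and leaving out QKO crypts 3 brought 2. Against TKO crypts 0 of 9 passed (1.61% of all genes). Without TKO crypts 2, 1 of 9 passed, Nkx2-2. Against Rb crypts 4 of 9 were higher and 1 was lower in limma, against 17.2% of all genes in either direction, 13.4% higher and 3.78% lower. Insm1 rose by 1.43 ± 0.35 on its brighter probe set, and its other probe set did not show this rise. The brighter one read 5.32, 5.96 and 4.83 in Rb crypts and 6.73, 7.44 and 6.22 in QKO crypts. Its arrays did not overlap, as for 28.9% of all genes. Neurog3 (1.30 ± 0.38), Isl1 (1.05 ± 0.33) and Neurod1 (0.97 ± 0.29) rose and Pax4 (-0.47 ± 0.15) fell. All 5 calls were lost without QKO crypts 2 and all 5 without Rb crypts 3, and 2 of 9 genes passed with sex as a covariate. Without WT crypts 3 and Rb crypts 2 the count was 5, with Nkx2-2 in and Pax4 out, and against WT crypts it was 0 in QKO.

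Within groups, several of the factors were high on the same array. Rb crypts 2, one of the arrays whose Rb1 level goes against its label, was the highest of its group for 9 of 9 genes. WT crypts 2 was the highest for 7 of 9 and QKO crypts 2 for 6 of 9, and in villi WT villi 3 was the highest for 8 of 9 and QKO villi 1 for 7 of 9. The share of all genes highest on each array was not computed, so these counts do not show a trait of the 9 genes. QKO crypts 2 also had the highest array median of its group (6.67, against 6.54 and 6.43), whereas QKO villi 1 did not (6.48, against 6.37 and 6.59). The part of array-wide level in these counts was not tested. Deviations from the group mean of Neurod1 and Insm1 correlated at r = 0.93 over the 24 arrays, those of Neurog3 and Insm1 at 0.85 and those of Neurod1 and Isl1 at 0.78; the points share arrays and RNA. Beside 13.4% of all genes, 7 of 8 acinar pancreas markers were higher in QKO than in Rb crypts. They averaged 8.22 and 8.36 in QKO crypts 1 and 3 and 5.50 in QKO crypts 2. Neurog3 (8.02), Neurod1 (8.03), Insm1 (7.44), Nkx2-2 (6.96), Pax6 (5.70) and Foxa2 (7.49) were highest on QKO crypts 2. Isl1 (7.19), Foxa1 (8.68) and Pax4 (5.84) were highest on QKO crypts 1. The part of pancreatic tissue in these levels was not tested.

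Between Rb and WT crypts 0 of the 9 genes passed in limma, and 0 of all genes (0%). Without the 2 arrays whose Rb1 level goes against their labels, the count was still 0 of 9, with 18 genes called in all. In villi it was also 0 of 9, against 14.8% of all genes. Neurod1 differed by -0.85 ± 0.29 (adjusted p = 0.054 in limma): its 3 Rb villus arrays (6.39 to 6.62) lay below the 3 WT arrays (6.93 to 7.59), as groups did not overlap for 41.9% of all genes. Neurod1 passed after quantile normalization (adjusted p = 0.026), without dim genes (0.037), with only WT and Rb villi in the fit (0.0071), with array weights (0.0099) and with the number as a block (0.047), and not with sex as a covariate (0.22). Foxa1 differed by 0.69 ± 0.27 (adjusted p = 0.096 in limma) and passed with only these groups in the fit (0.0070) and with array weights (0.013). In the same villi, 5 of 12 hormone genes and 8 of 18 serotonin and granule genes fell and 0 rose, beside 6.19% of all genes lower and 8.59% higher. Among the listed genes, Ghrl fell by 1.83 ± 0.35, Gip, the glucose-dependent insulinotropic hormone, by 1.76 ± 0.34 and Tph1 by 1.40 ± 0.31. Of the 12 other enteroendocrine transcription factors 0 passed. All 7 proliferation genes rose in Rb villi. They averaged 11.0 to 11.2 there and 8.52 to 8.77 in WT villi, and the part of that difference in the lower hormone levels was not tested.

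TKO crypts had less Foxa2 RNA than WT crypts, and Foxa2 was the 1 of 9 genes to pass in limma, against 4.73% of all genes in either direction and 2.80% lower. Foxa2 read 7.08, 7.64 and 7.12 in WT crypts and 6.52, 6.40 and 6.46 in TKO crypts, without overlap, as for 26.7% of all genes, and with little spread between the TKO arrays. It fell by 0.82 ± 0.20 (adjusted p = 0.019 in limma). The call was lost with sex as a covariate (adjusted p = 0.11) and without WT crypts 2 (0.12), TKO crypts 1 (0.054) or TKO crypts 3 (0.064), and it compares arrays on both sides of the poly-A gap. It was kept without WT crypts 3 and Rb crypts 2 (adjusted p = 0.033). Atoh1, the master factor of secretory cells, fell by 1.14 ± 0.17 and Spdef, a goblet and Paneth cell factor, by 0.84 ± 0.20 in the same comparison, 2 of 12 secretory-fate and Notch genes. Goblet cell markers averaged 13.5 to 13.7 in WT crypts and 12.6 to 12.8 in TKO crypts, where 5 of 7 were lower. Paneth cell markers averaged 13.5 to 13.8 in WT and at most 12.9 in TKO, with 0 of 4 passing in limma. Of the 7 proliferation genes 2 fell, Mki67 by 1.48 and Top2a by 1.29. The part of these markers in the lower Atoh1, Spdef and Foxa2 levels was not tested. In TKO villi 0 of 9 genes passed in limma against WT villi (9.77% of all genes). Neurog3 differed by 1.03 ± 0.38 (adjusted p = 0.096 in limma) and Insm1 by 0.86 ± 0.35 (adjusted p = 0.14 in limma). Without TKO villi 3, Neurog3 passed (adjusted p = 0.019).

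Of the 9 genes, 5 had more than 1 probe set. The other Neurod1 probe set gave 2.20 ± 0.28 for QKO against TKO villi, close to the main one, in the limma fit of every probe set. The other Neurog3 probe set was also lower in villi, by 0.89 ± 0.23 in WT and 1.19 ± 0.23 in QKO. The other Insm1 probe set fell from crypts to villi in WT mice (-1.08 ± 0.24). It differed by only 0.33 ± 0.24 between QKO and WT villi, which did not pass. In crypts it was not higher in QKO, at 5.15, 5.29 and 4.51 against 5.25, 5.92 and 5.41 in WT. Between QKO and Rb crypts its arrays overlapped, with Rb crypts 2 the highest and lowest values of 4.51 in QKO and 4.69 in Rb. The rise of Insm1 in QKO villi and crypts therefore rests on 1 of its 2 probe sets. The other Isl1 probe set was dimmer, with a mean of 4.55, and differed by 0.23 between QKO and WT villi, which did not pass. The rise of Isl1 therefore rests on its brighter probe set. Among the 4 other Pax6 probe sets, 1 passed for QKO against Rb villi (0.70 ± 0.18, adjusted p = 0.0067 in limma), unlike the brightest.

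Over the 24 arrays, the genes whose levels followed each factor most closely were taken by Pearson correlation, as a description. For Neurod1 they were Rbp4 (r = 0.97), the retinol carrier, Scg2 (0.96) and Tph1 (0.95), of which Scg2 and Tph1 belong to the serotonin and granule list. For Neurog3 they were Cdk6, Rad51b and Tamm41 (0.95 each), a cell-cycle kinase, a recombination factor and a mitochondrial enzyme. For Insm1 they were Diaph2 (0.93), Atxn10 (0.93) and Nipal2 (0.92), for Isl1 Ipo4, Lrp11 and Prnp (0.90 each) and for Nkx2-2 Maged1 (0.92), Iqgap1 and Ephb3 (0.91 each). For Foxa1 they were Fxyd3 (0.90), Rnf149 (0.88) and Arfgef3 (0.87), and for Foxa2 Klhl17 (0.90), Galnt4 and Paip1 (0.89 each). Among the 9 genes themselves, Isl1 and Insm1 were the most alike pair (0.88), followed by Neurod1 and Isl1 (0.84) and by Neurog3 and Nkx2-2 (0.79). These values span 8 groups that differ in genotype, sex, compartment and level of the poly-A controls.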

How the data were processed

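Per the labels, total RNA was extracted with Trizol and 3 ug was labelled with biotin for Affymetrix arrays. The authors' deposited values were log2 intensities of 45101 probe sets on 24 arrays, ranging from 2.29 to 14.9 (background correction and normalization: not given in the sources used here). The values were used as deposited. Of the probe sets, 34945 named 1 gene, 932 several and 9160 none, and 64 were controls; 34741 symbols were updated through Entrez identifiers, and each of 18193 genes was read from its brightest probe set. limma 3.58.1 (R 4.3.3) fitted 1 mean per group over all 24 arrays (16 residual degrees of freedom, eBayes with an intensity trend), for 18 comparisons with Benjamini-Hochberg adjustment over all genes in each, called at adjusted p under 0.05. The scripts were tested on simulated data. The number of arrays, 3 per group, limits the precision. Counts at an unadjusted p under 0.05 are given without the share of all genes at that threshold, so they do not show an excess. The shares of all genes printed beside calls are for adjusted p.

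The 9 genes and the gene lists were chosen with earlier results of these data known. By rule, the 9 genes are always named, with up to 3 called genes of smallest p from each pathway list and the 3 genes most correlated with each factor. Marker lists covered goblet, Paneth, tuft, enterocyte, stem, islet, acinar, neuron and glia, stromal, T cell and proliferation genes; tuft cell markers averaged 4.97 to 5.91 and stromal markers 4.89 to 6.50 per array. Some genes of the pathway lists were not analysed here. Array numbers paired crypts and villi in TKO (r = 0.61, 0.55 and 0.64) and QKO (0.55, 0.25 and 0.37), by the values, and not in WT (0.01, 0.13 and 0) or Rb (0.06, -0.01 and -0.24). Alternatives covered normalization, dim genes, probe sets, variance model, arrays in the fit, blocks, sex and arrays left out. Figures were drawn with matplotlib 3.10.9.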

Additional observations from a re-analysis of the deposited data

Results flagged for a closer look

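Neurod1 and Isl1 were flagged because the effect of Rb loss in villi differed with the E2f genotype, by the limma test of the difference itself. They were 2 of the 9 genes, beside 15.4% of all genes that passed this test in either direction and 8.91% as higher. The difference was 3.03 ± 0.41 for Neurod1 (adjusted p = 3.08e-05) and 1.72 ± 0.46 for Isl1 (adjusted p = 0.014), each from 3 arrays in each of 4 villus groups. Neurod1 passed in all 11 alternatives and in all 12 fits that left out 1 array, and so did Isl1. The Isl1 result is that of its brighter probe set. Its other, dimmer probe set read 4.95, 4.71 and 4.57 in QKO villi and 4.88, 4.51 and 4.14 in TKO villi. All QKO villus arrays were male and all WT villus arrays female; with sex as a covariate Neurod1 was 2.96 and Isl1 1.64. Poly-A and hybridization controls were higher in QKO than in TKO villi, and their part in the 2 results was not tested.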

How the results depend on the processing

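No called direction was reversed in any alternative. The larger changes in the number of the 9 genes called are given first, with the main count in brackets. Quantile normalization gave 1 in TKO villi minus crypts [0], 3 in QKO villi minus crypts [5], 1 in Rb minus WT villi [0], 1 in TKO minus WT villi [0] and 2 in QKO minus Rb crypts [5]; centring on medians gave 1 in TKO villi minus crypts. Without an intensity trend, 1 gene passed in Rb minus WT for villi minus crypts [0]. Without dim genes (10072 genes left, 7 of the 9 among them, without Pax4 and Pax6), 2 passed in TKO villi minus crypts, 1 in Rb minus WT villi and 1 in QKO minus WT crypts [0]. Averaging the probe sets of each gene gave 2 in QKO minus Rb crypts and 1 in QKO minus WT for villi minus crypts [0]. Fitting only the groups compared gave 3 in QKO villi minus crypts, 2 in Rb minus WT villi, 1 in QKO minus Rb crypts and 1 in QKO minus TKO villi [3]. Array weights gave 2 in Rb minus WT villi, 2 in TKO minus WT villi and 3 in QKO minus Rb crypts. The replicate block by number gave 3 in TKO villi minus crypts and 1 each in Rb minus WT villi, TKO minus WT villi and QKO minus WT crypts; that number is not shared across genotypes by the values. The block by genotype and number gave 3 in TKO and 3 in QKO villi minus crypts and changed no other call. Sex as a covariate gave 0 in Rb villi minus crypts [2], 0 in TKO minus WT crypts [1] and 2 in QKO minus Rb crypts. Without WT crypts 3 and Rb crypts 2, 0 passed in Rb villi minus crypts; without QKO crypts 2 and QKO villi 3, 3 passed in QKO villi minus crypts and 0 in QKO minus Rb crypts. In 16 other cases a count moved by 1 gene, among them 4 instead of 3 in QKO minus Rb villi after quantile normalization, centring and array weights (Foxa2, lower), with averaged probe sets (Pax6) and with only the groups compared (Neurog3), and 3 instead of 4 in QKO minus WT villi after centring (Foxa1). After quantile normalization QKO minus WT villi kept a count of 4 with Pax4 in and Foxa1 out, and with only the groups compared Neurog3 entered it (5). Leaving out 1 array gave, for villi minus crypts, 4 to 6 in WT, 0 to 2 in Rb, 0 to 2 in TKO and 3 to 5 in QKO; 0 to 0 in Rb minus WT crypts, 0 to 1 in Rb minus WT villi, 0 to 1 in TKO minus WT crypts and villi, 0 to 3 in QKO minus WT crypts, 2 to 4 in QKO minus WT villi, 0 to 5 in QKO minus Rb crypts, 3 to 3 in QKO minus Rb villi, 0 to 1 in QKO minus TKO crypts, 1 to 3 in QKO minus TKO villi, and 2 to 3 in the test of Rb by E2f loss. The cause of these changes was not tested. Signals below the median of all genes, in all groups for Pax4 and Pax6 and in most for Nkx2-2, Insm1, Isl1 and Neurog3, limit what the values can show.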
